A study of Mus musculus with 6 samples.

Results

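The left ventricles of 3 wild-type (WT) mice, *Lztr1* +/+ and 12 weeks old, were profiled by RNA sequencing as the controls of a set that also held 3 mice heterozygous for the R409C allele of *Lztr1*, the adaptor of a ubiquitin ligase that targets RAS-family GTPases. The WT ventricles are described here on their own. A gene was counted as measured when it passed 1 CPM (counts divided by the library's total, per 1000000) in each of the 3 WT mice, and 12459 of the 56923 genes listed did so. These comprised 11558 protein-coding genes, 460 long noncoding RNAs, 292 processed pseudogenes and smaller classes, and they held 99.6% to 99.8% of the counts of each mouse. The mice had been backcrossed to C57BL/6J, and the ventricles were perfused with phosphate-buffered saline before collection. The labels call the tissue heart, whereas the study's methods name the left ventricle and state that males were used. Nothing was given to these mice, each library came from 1 mouse, and with a single condition there is no group comparison and no p-value.

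The ventricular wall is built mainly of cardiomyocytes, which fill most of its volume but are outnumbered by its endothelial cells, fibroblasts, pericytes and macrophages together. A working cardiomyocyte packs its cytoplasm with sarcomeres, whose thick myosin and thin actin filaments slide on each release of calcium, and with mitochondria that burn fatty acids to make ATP. Part of the respiratory chain is encoded by the mitochondrial genome itself, as proteins that are transcribed together with ribosomal and transfer RNAs from both strands of a small circle.

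The 3 libraries held 71768345, 71173751 and 68206059 counts. The floor of detection used here, 3 counts, corresponds to 0.0333 to 0.0487 CPM after the scaling between mice described next. WT mouse 3 stood apart from WT mice 1 and 2. Its scaling factor by the trimmed mean of M values (TMM), which is meant to cancel differences in composition, was 1.32 against 0.876 and 0.865. Every mean over the 3 mice below includes it. In bulk tissue fewer cells of a type and less RNA per cell cannot be told apart, and the intervals and floors given cover counting error only.

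Genes of the mitochondrial genome took 36.5% of the counts of WT mouse 1 (95% Wilson interval, 36.4638 to 36.4861), 37.3% of WT mouse 2 and 13.8% of WT mouse 3. The mean was 29.2% ± 13.3 (SD, n = 3), or 36.9% ± 0.579 with WT mouse 3 left out. The low value of WT mouse 3 also lay outside the range of the 3 heterozygous mice, 29.7% to 45.4%. A further 9.03%, 9.78% and 3.79% of counts fell on 10 nuclear pseudogenes that are copies of mitochondrial genes, which with the mitochondrial genes sums to 45.5%, 47.1% and 17.6% of the counts. If a read that fits both places was counted at both, which the sources used here do not say, these sums and the library totals hold it more than once.

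Of these copies, 7 lie side by side on the minus strand of chromosome 1 (GRCm39 chr1:24650616-24655278) and match the mitochondrial genome at 99.7% to 100% of their aligned bases. A short read from these stretches fits both places, unless it covers the 1 aligned base at which *Gm28438* or *Gm29216* differs. Pairs of sequences are shown for this reason. The other 3 copies, on chromosome 2, match at 95.9% to 97.6% and can be told apart by reads that cover a difference. The first pair below is from the chromosome 2 copy *Gm13339* (GRCm39 chr2:22480263-22480323, minus strand) and *mt-Nd2* (chrM:4664-4724, plus strand), and the second from the chromosome 1 copy *Gm29216* (chr1:24655236-24655269, minus strand) and *mt-Co1* (chrM:6390-6423, plus strand). Capitals mark the bases at which the members of a pair differ, 3 in the first pair and 1 in the second.
Gm13339: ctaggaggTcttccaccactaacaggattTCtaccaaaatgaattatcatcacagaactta
mt-Nd2: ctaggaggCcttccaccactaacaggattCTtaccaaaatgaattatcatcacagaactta
Gm29216: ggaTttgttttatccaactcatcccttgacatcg
mt-Co1: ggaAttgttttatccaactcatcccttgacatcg

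*Gm10925*, which matches *mt-Atp6* at each of 678 aligned bases, held 97.3%, 99.1% and 100% of the count of *mt-Atp6* in WT mice 1, 2 and 3. *Gm28661*, the copy of *mt-Co2*, likewise held 99.8%, 98.6% and 100.9% of its count. Copies of part of a gene held less: *Gm28439*, which covers 876 bases of *mt-Nd4*, held 38.2%, 40.6% and 76.6% of its count, and *Gm29216*, which covers 483 bases of *mt-Co1*, held 14.6%, 15.5% and 14.6%. Among the copies named from chromosome 1, that of *Gm28439* was the share that changed in WT mouse 3. On chromosome 2, by contrast, *Gm13341* held 0.182%, 0.169% and 0.214% of the count of *mt-Co2*. Levels of the mitochondrial genes and of their chromosome 1 copies are therefore uncertain, since the counting could split such reads between them or count them at both. *Gm13339* went the other way from its counterpart, with 6.60, 6.21 and 74.3 CPM, highest in WT mouse 3.

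Within the mitochondrial genome, *mt-Co1*, the catalytic subunit of cytochrome c oxidase, was the highest gene of the libraries, at 129352, 140572 and 36404 TMM-scaled CPM. *mt-Cytb*, the core of complex III, stood at 43684, 41241 and 6953 CPM. *mt-Nd2*, a membrane subunit of complex I, stood at 28443, 29935 and 3680 CPM. In each of them WT mice 1 and 2 lay close together, and WT mouse 3 was several times lower.

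The drop in WT mouse 3 was unequal across the mitochondrial genome. Relative to the mean of WT mice 1 and 2, its level was 0.0846 for *mt-Atp8*, 0.270 for *mt-Co1*, 0.458 for *mt-Co2* and 0.508 for *mt-Nd6*, the one protein gene of the light strand. The ribosomal RNAs *mt-Rnr2* and *mt-Rnr1* stood at 1.07 and 0.998 of that mean. Protein-coding genes accordingly made up 96.5%, 96.9% and 88.0% of the mitochondrial counts in WT mice 1, 2 and 3, and ribosomal RNAs 2.66%, 2.30% and 10.5%. Of the 35 mitochondrial genes measured, 23 differed by more than 2-fold between the highest and the lowest mouse, as did 8 of the 10 nuclear copies; over all measured genes this share was 5.84% (728 of 12459), and 0.923% (115 genes) between WT mice 1 and 2 alone.

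**Figure D1:**
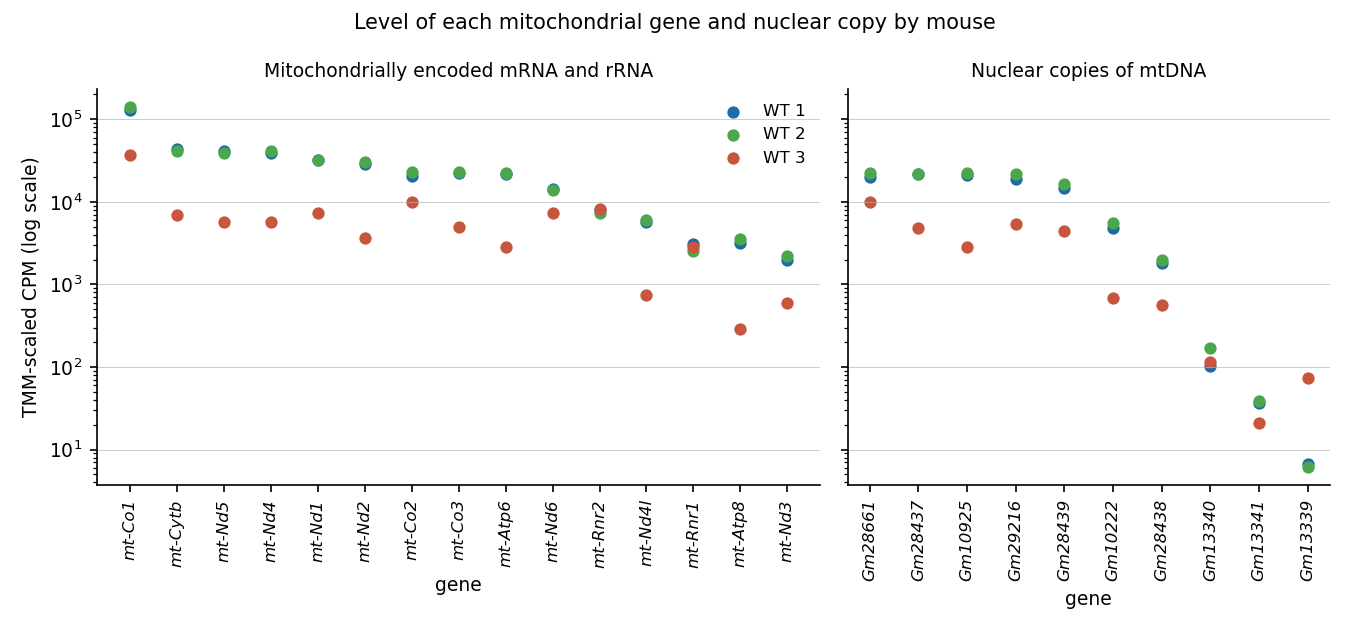
TMM-scaled CPM (log axis) of the mitochondrially encoded messenger and ribosomal RNAs (left) and of the nuclear copies (right), 1 point per WT mouse. The points of WT mouse 3 lie below those of WT mice 1 and 2 for the protein genes, with mt-Atp8 at 286 against 3163 and 3586 CPM, while the points for mt-Rnr1 and mt-Rnr2 lie close together.

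Because the mitochondrial share alone moves the share of everything else, composition is given below as a share of nuclear counts, with the mitochondrial genes and their 10 nuclear copies left out. On that basis the totals of the large classes lay close together in the 3 mice, though single lists did not, such as ATP synthase with 1.90%, 1.89% and 2.31%. Sarcomere genes took 10.5%, 9.73% and 10.02% of nuclear counts (10.1% ± 0.409, SD, n = 3), where their share of all counts had been 5.74%, 5.15% and 8.25%. Nuclear genes of energy metabolism took 14.8%, 14.4% and 14.8% (14.7% ± 0.204), against 8.05%, 7.64% and 12.2% of all counts. Matrix genes came to 0.919% ± 0.0293 of nuclear counts, calcium-handling genes to 4.53% ± 0.125, cytosolic ribosomal proteins to 1.34% ± 0.0548, and channels, junction and sarcolemma genes together to 1.24% ± 0.0978. Per length the same classes took other shares of nuclear transcripts, namely 10.6% ± 0.393 for the sarcomere, 21.6% ± 0.485 for energy metabolism, 3.58% ± 0.129 for ribosomal proteins, 2.89% ± 0.109 for calcium handling, 0.799% ± 0.0847 for channels, junctions and sarcolemma, and 0.526% ± 0.0117 for matrix. Ribosomal proteins, with short transcripts, thus stood above calcium handling per length and below it in counts. The excess of WT mouse 3 seen in the shares of all counts was thus absent from the nuclear shares of the sarcomere and energy genes.

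**Figure D2:**
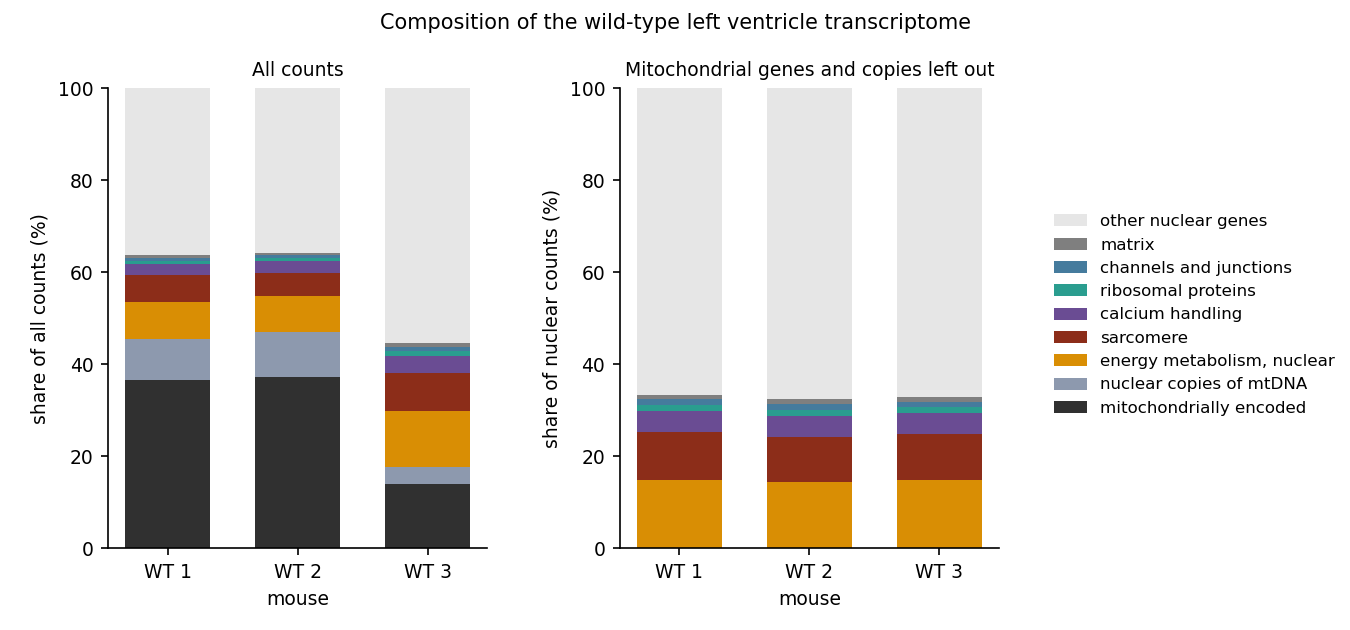
Stacked shares (percent) of each gene class in the 3 WT mice, over all counts (left) and over nuclear counts (right). Over all counts WT mouse 3 differs from the others (mitochondrial genes 13.8% against 36.5% and 37.3%), while over nuclear counts the sarcomere share lies between 9.73% and 10.5%.

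Counts were spread over many nuclear genes but weighted toward a few. In WT mice 1, 2 and 3 the fewest genes that hold 50% of all counts numbered 26, 22 and 312. Among nuclear counts they numbered 577, 600 and 590 (589 ± 11.5, n = 3). The 10 highest nuclear genes held 11.8% ± 0.122 of nuclear counts, the 100 highest 27.5% ± 0.376 and the 1000 highest 58.8% ± 0.245. The curves of the 3 mice nearly coincided once the mitochondrial sequence was set aside.

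Levels of different genes are compared per length, as TPM (the share of transcripts, per 1000000) computed from the counts, the length of each gene's canonical transcript and a total over nuclear measured genes. On this scale nuclear genes ran from 0.261 TPM for the noncoding transcript *9330162G02Rik* to 15075 TPM for *Atp2a2*, a span of 4.76 on the log10 scale. The median was 21.4 TPM, 10% of genes lay below 3.93 TPM and 10% above 130 TPM. Some 126 genes reached 1000 TPM, 1638 reached 100 TPM and 8950 reached 10 TPM. With the mitochondrial genes included, the ratio of the highest to the lowest mean TPM was 883665. The order of genes was shared between mice, with a Spearman's rho across genes of 0.988 for WT mice 1 and 2, 0.974 for 1 and 3, and 0.972 for 2 and 3, which is a description since genes are not independent replicates.

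**Figure D3:**
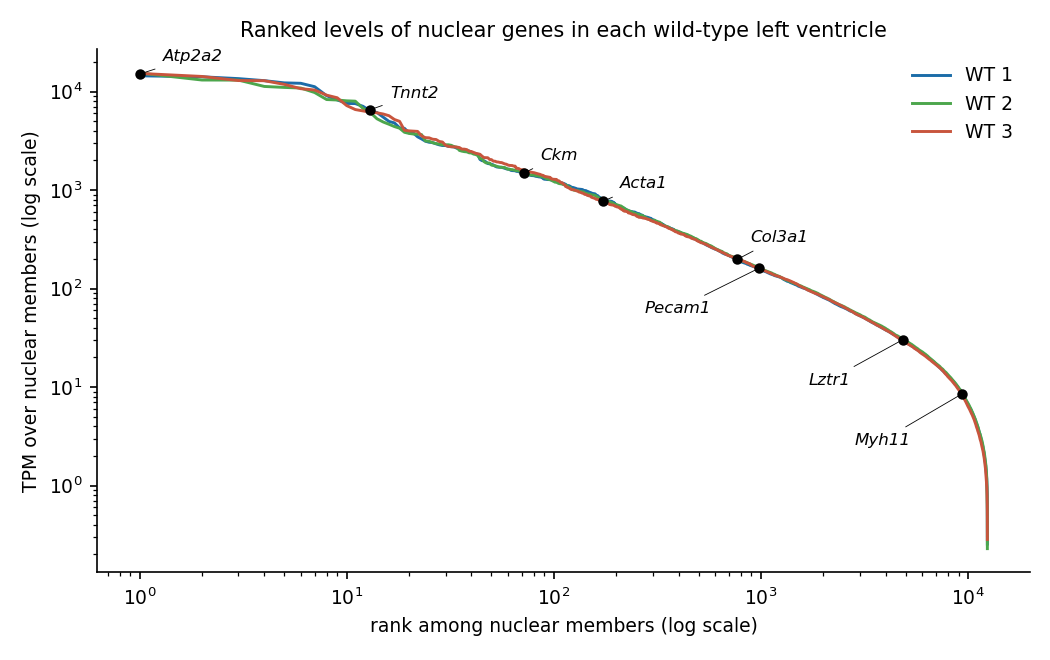
TPM over nuclear genes (log axis) against rank (log axis), 1 line per WT mouse, with the mean of 8 genes as black points. The 3 lines nearly coincide, from Atp2a2 at rank 1 through Ckm at rank 72 to Lztr1 at rank 4829.

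The 5 markers of ventricular cardiomyocytes were among the abundant nuclear genes. *Actc1*, cardiac alpha-actin (GRCm39 chr2:113876266-113884043), stood at 11215, 13090 and 11844 TPM in WT mice 1, 2 and 3. *Myh6*, the fast alpha-myosin heavy chain of the adult mouse heart (chr14:55179367-55205887), stood at 12919, 10873 and 10383 TPM, and *Myl2*, the ventricular regulatory light chain (chr5:122238848-122251545), at 12264, 9790 and 7211 TPM. *Tnnt2*, cardiac troponin T (chr1:135763738-135780315), stood at 7588, 6142 and 5925 TPM. These genes ranked between 5 and 13 among nuclear genes, and *Ckm*, the muscle creatine kinase, ranked 72 with 1497 ± 272 TPM.

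Markers of other tissues were mostly below the threshold. Of 5 atrial markers *Nppa* alone was measured, *Myl7* and *Sln* had no count in any WT mouse, *Myl4* did not exceed 0.599 CPM and *Bmp10* did not exceed 0.0444 CPM. None of the 4 lymphocyte, 2 neutrophil, 4 adipocyte or 2 liver markers was measured, *Ucp1* of brown fat had no count, and of 6 skeletal muscle markers the one measured was *Acta1*, which the heart also makes. Albumin (*Alb*) reached 7.69 CPM in WT mouse 1 against 0.552 and 0.944 CPM in the others. The 4 Y-linked markers were all measured and *Xist* did not exceed 0.286 CPM.

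The 20 highest nuclear genes held 9 genes of energy metabolism, 8 of the sarcomere, 2 of calcium handling and 1, the ferritin heavy chain *Fth1*, from none of the lists. *Atp2a2* (chr5:122591575-122640903), which encodes the SERCA2 pump that returns calcium to the sarcoplasmic reticulum, led in each mouse with 14474, 15441 and 15310 TPM. Its lowest value was above the highest of the next 5 genes. Those 5, namely *Myl3*, *Mb*, *Tnni3*, *Actc1* and *Myh6*, had means of 11392 to 13204 TPM. The range of *Myl3* lay above that of *Myh6*, while those of *Mb*, *Tnni3*, *Actc1* and *Myh6* overlapped, so the order of these 4 is within the spread between mice. Among the top 100 nuclear genes, 55 belonged to energy metabolism, 13 to the sarcomere, 4 to translation, 3 to calcium handling and 3 to stress responses, and 22 were in no list. WT mice 1 and 2 shared 93 of their top 100 genes, and each shared 83 with WT mouse 3.

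In the thick filament, *Myl3*, the ventricular essential light chain, was the highest and the steadiest gene, at 13549, 13113 and 12950 TPM (13204 ± 310). *Mybpc3*, cardiac myosin-binding protein C, reached 3005 ± 483 TPM. The M-band proteins *Myom1* and *Myom2* stood at 997 ± 41.1 and 744 ± 44.9 TPM. The slow beta-myosin *Myh7*, which prevails in the fetal mouse ventricle, was far lower at 343 ± 26.9 TPM. Per length, *Myh6* exceeded *Myh7* by 34.6-, 32.8- and 32.1-fold in WT mice 1, 2 and 3 (33.2 ± 1.28), a ratio that differed little between mice.

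In the thin filament, *Tnni3*, the cardiac inhibitory troponin, stood at 12148, 11027 and 14252 TPM and *Tpm1*, alpha-tropomyosin, at 9087, 8059 and 10709 TPM. *Tnnc1*, the calcium-binding troponin, stood at 4979, 4416 and 6368 TPM. All 3 were highest in WT mouse 3, whereas *Myl2* was lowest there, so sarcomere genes did not shift as a block. *Tnnt2* was lowest in WT mouse 3 by TPM and in WT mouse 2 by TMM-scaled CPM (3047, 2380 and 2410). *Acta1*, the skeletal actin that the developing heart uses, reached 772 ± 222 TPM, and *Actc1* exceeded it by 21.7-, 14.3- and 13.4-fold per length. The slow skeletal *Tnni1* had no count in WT mice 1 and 2 and 17 counts in WT mouse 3. Against the floor of 3 counts per library, *Tnni3* was at least 63589-fold higher in WT mouse 1 and at least 54536-fold higher in WT mouse 2, and in WT mouse 3 it was 19115-fold higher.

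Among Z-disc and cytoskeletal genes, the LIM-domain genes *Fhl2* and *Csrp3* led with 2533 ± 216 and 2351 ± 111 TPM. They were followed by *Cryab*, a small heat-shock chaperone of the Z-disc, with 2297 ± 338 TPM and by *Des*, the intermediate filament desmin, with 1715 ± 133 TPM. *Ttn*, the giant spring of the sarcomere, drew 3019, 2712 and 2418 CPM, more counts than *Fhl2*, yet per length it stood at 113 ± 13.2 TPM, its transcript being very long. *Ankrd1*, a stretch-responsive cofactor, was the most variable of these Z-disc genes, at 495, 438 and 744 CPM. Thick filament genes took 4.29% ± 0.349 of nuclear counts, thin filament genes 3.67% ± 0.143, and titin and Z-disc genes 2.13% ± 0.0922. None of the 48 sarcomere genes measured differed by over 2-fold between mice, where 5.84% of all measured genes did. That share is lower among abundant genes, at 2.16% of nuclear genes from 30 to 100 CPM and 2.37% from 100 to 1000 CPM. No special steadiness of the sarcomere list is read from it.

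Calcium-handling genes summed to 27476, 28535 and 28095 CPM in WT mice 1, 2 and 3, which is 1.04-fold from lowest to highest. *Pln*, phospholamban, the brake on SERCA2, followed the pump with 7082, 8220 and 6575 TPM. Per length *Atp2a2* exceeded *Pln* by 2.04-, 1.88- and 2.33-fold. *Sln*, the atrial counterpart of *Pln*, had no count, which makes *Pln* at least 44217-fold higher in WT mouse 1, where the bound was lowest. *Atp2a1*, the pump of fast skeletal muscle, had 52, 6 and 8 counts. *Ryr2*, the calcium release channel, stood at 1173, 1200 and 1080 CPM, *Casq2*, the calcium store, at 738, 816 and 860 CPM, and *Slc8a1*, the sodium-calcium exchanger, at 398, 399 and 433 CPM. None of the 23 measured genes of this list exceeded 2-fold between mice, again a short list beside a background of 5.84%.

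At the membrane, *Gja1*, the main gap-junction connexin of the ventricle, stood at 400, 522 and 338 CPM. The desmosomal *Dsp* (1080, 1041 and 1055 CPM) and *Kcnip2*, a subunit of the transient outward potassium current (148, 149 and 145 CPM), hardly varied. Of 45 such genes 1 exceeded 2-fold, where 5.84% of all measured genes did, a share that is lower among abundant genes.

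Nuclear genes of the respiratory chain were abundant in every complex. Complex I took 1.05% ± 0.0576 of nuclear counts over 36 genes, complex II 0.373% ± 0.0333 over 4, complex III 0.636% ± 0.0487 over 9, complex IV with cytochrome c 0.636% ± 0.0276 over 16, and ATP synthase 2.03% ± 0.242 over 17. The catalytic *Atp5b* led with 8238, 7996 and 9201 TPM, followed by *Atp5a1* with 6369, 6739 and 8658 TPM. Both were highest in WT mouse 3, the mouse in which the mitochondrially encoded *mt-Atp6* was lowest (21569, 22618 and 2811 CPM, the split with *Gm10925* being uncertain). In other complexes the leading genes were *Cox4i1* (4598 ± 964 TPM), *Uqcrc1* (2974 ± 255 TPM), *Ndufs7* (1732 ± 417 TPM) and *Sdha* (1424 ± 42.4 TPM).

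A few respiratory genes varied far more than their complexes. *Atp5g2*, which encodes the same ring subunit as *Atp5g1* and *Atp5g3*, fell from 121 and 101 CPM in WT mice 1 and 2 to 25.7 CPM in WT mouse 3. *Cox7a2*, a subunit of complex IV, stood at 169, 165 and 45.1 CPM, and its heart and muscle counterpart *Cox7a1* stood at 1.301, 0.984 and 6.87 times its level per length, about equal in WT mice 1 and 2 and higher in WT mouse 3. *Atp5h*, a stalk subunit, went the other way with 319, 302 and 703 CPM. In all 3 genes WT mice 1 and 2 lay together and WT mouse 3 apart. Reads shared with processed pseudogenes make levels of such small-subunit genes uncertain, and the part of this in the differences was not tested. Over the 189 measured energy genes, 9 differed by over 2-fold, beside 5.84% of all measured genes, a share that is lower among abundant genes.

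Fatty acid genes took 3.29% ± 0.190 of nuclear counts, more than the 1.42% ± 0.0615 of glucose uptake and glycolysis. *Lpl*, the lipase that frees fatty acids in the capillaries, led at 7558, 8308 and 6090 TPM, and *Fabp3*, the heart fatty acid-binding protein, stood at 6133, 4916 and 3993 TPM. *Hadhb*, a subunit of the trifunctional beta-oxidation enzyme, reached 3415 ± 208 TPM and *Cd36*, the fatty acid translocase, 2408 ± 357 TPM. *Cpt1b*, the muscle form of the enzyme that admits fatty acids to mitochondria, exceeded the liver form *Cpt1a* by 26.3 ± 1.95-fold per length. *Lpl* and *Fabp3* were lowest in WT mouse 3, while their lists' share differed little between mice.

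Pyruvate and TCA cycle genes took 2.72% ± 0.155 of nuclear counts, led by *Mdh1* (3122 ± 278 TPM), *Idh2* (2768 ± 364 TPM) and *Mdh2* (2554 ± 45.0 TPM), which encode malate and isocitrate dehydrogenases. In glycolysis *Aldoa*, an aldolase, led with 4342 ± 430 TPM. The heart subunit of lactate dehydrogenase, *Ldhb*, exceeded *Ldha* by 2.66 ± 0.150-fold, and the insulin-responsive glucose transporter *Slc2a4* exceeded *Slc2a1* by 46.5-, 46.3- and 28.6-fold per length. *Pdk4*, the kinase that holds back pyruvate oxidation and rises with fasting, was higher in WT mouse 1 (939 CPM) than in WT mice 2 and 3 (454 and 505 CPM). For ketone bodies, *Oxct1* reached 1654 ± 122 TPM.

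Oxygen storage and energy transfer rested on a few very abundant genes. *Mb*, myoglobin, stood at 14137, 11284 and 12908 TPM, *Ckmt2*, the mitochondrial creatine kinase, at 4289, 4660 and 4990 TPM, and *Slc25a4*, the ADP/ATP carrier of heart and muscle, at 3800, 3692 and 6177 TPM. *Ckm* exceeded the brain form *Ckb* by 16.3-, 11.7- and 10.4-fold per length. *Slc25a4* was set apart in WT mouse 3, whereas the values of *Mb* and *Ckmt2* were interspersed or close.

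Promoter sequence was compared between these 2 abundant gene classes, using RefSeq promoters on GRCm38.p6 that span 250 bases before to 50 bases after the annotated start. Of 11535 nuclear protein-coding genes measured, 7245 matched a single promoter. The letters CG, which read the same on both strands, were counted in each window. The promoters of *Myl3* and *Myh6* are shown for the sarcomere and those of *Atp5b* and *Mdh1* for energy metabolism, as the 100 bases before the start, with each CG in capitals. They were chosen after the counts were seen, and other genes went the other way, such as *Tpm1* of the sarcomere with 27 CG in its window and *Ckmt2* of energy metabolism with 4. The sequences shown lie, in the order named, at chr9:110763578-110763677 (plus strand), chr14:54966608-54966707 (minus), chr10:128083207-128083306 (plus) and chr11:21571935-21572034 (minus).
Myl3: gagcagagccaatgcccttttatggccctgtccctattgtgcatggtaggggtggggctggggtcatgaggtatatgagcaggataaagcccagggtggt
Myh6: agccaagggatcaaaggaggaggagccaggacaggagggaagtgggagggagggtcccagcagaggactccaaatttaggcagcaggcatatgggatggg
Atp5b: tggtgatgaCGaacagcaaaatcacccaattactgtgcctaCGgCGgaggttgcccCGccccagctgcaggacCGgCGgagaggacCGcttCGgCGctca
Mdh1: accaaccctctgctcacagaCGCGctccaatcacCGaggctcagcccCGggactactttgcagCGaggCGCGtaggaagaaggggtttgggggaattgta

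The stretches of *Myl3* and *Myh6* held no CG, while that of *Atp5b* held 9 and that of *Mdh1* 7. Over the whole 300-base windows the counts were 1, 2, 18 and 21. The 6 thick filament promoters matched had a median of 2 (range 1 to 9), and the 27 sarcomere promoters a median of 8, with 10 of them (37.0%) at 5 or fewer. The 133 energy promoters had a median of 18, with 8 (6.02%) at 5 or fewer. The limit of 5 was chosen after the counts were seen. Over all 7245 measured promoters the median was 22 and 7.37% were at 5 or fewer; over all 22862 promoters with a single entry the median was 7 and 45.1% were at 5 or fewer. The contrast is a description of these windows.

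Matrix genes were modest in level. The fibrillar collagens *Col3a1*, *Col1a1* and *Col1a2* stood at 198 ± 57.1, 114 ± 49.7 and 112 ± 44.2 TPM, below *Col4a1* of the basement membrane (301 ± 36.7 TPM) and *Sparc*, a collagen-binding glycoprotein (517 ± 34.2 TPM). Fibrillar collagen genes took 0.148% ± 0.0337 of nuclear counts, basement membrane genes 0.372% ± 0.0103, and matrix glycoproteins and proteoglycans 0.399% ± 0.0155. *Col1a1*, at 111, 113 and 233 CPM, and *Col1a2*, at 97.9, 109 and 200 CPM, were set apart in WT mouse 3, as was *Col3a1* with 197, 212 and 336 CPM. *Col4a2* (279, 292 and 312 CPM) and *Mgp* (34.7, 31.3 and 32.9 CPM) were even between mice. Of the 59 matrix genes measured, 4 exceeded 2-fold, a share near the 5.84% of all measured genes.

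The summed levels of the marker lists of non-cardiomyocytes were far below that of the 5 ventricular markers, which was 34394, 30783 and 29620 CPM. Fibroblast markers summed to 1336, 1335 and 1695 CPM, pericyte markers to 1089, 1206 and 911 CPM, endothelial markers to 918, 927 and 790 CPM, macrophage markers to 188, 193 and 219 CPM, and smooth muscle markers to 83.0, 77.9 and 82.2 CPM. WT mouse 3 was thus highest in fibroblast and macrophage markers and lowest in pericyte and endothelial markers. *Gsn*, which cardiomyocytes express too, led the fibroblast list with 1223 ± 160 TPM. *Fabp4*, the capillary fatty acid-binding protein, led the endothelial list with 601.8 ± 72.98 TPM, and *Rgs5* the pericyte list with 650 ± 69.2 TPM.

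Among the marker lists with any measured gene, red cell markers varied most, with sums of 474, 630 and 1291 CPM. The beta-globin genes *Hbb-bs* (189, 273 and 600 CPM) and *Hbb-bt* (110, 164 and 377 CPM) are near-identical and their split is uncertain, but both were lowest in WT mouse 1 and highest in WT mouse 3. The alpha-globin *Hba-a1* stood at 170, 187 and 300 CPM and *Alas2*, the erythroid enzyme of heme synthesis, at 4.201, 6.99 and 13.9 CPM. Of the 4 markers 3 exceeded 2-fold, beside 5.84% of all measured genes.

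**Figure D4:**
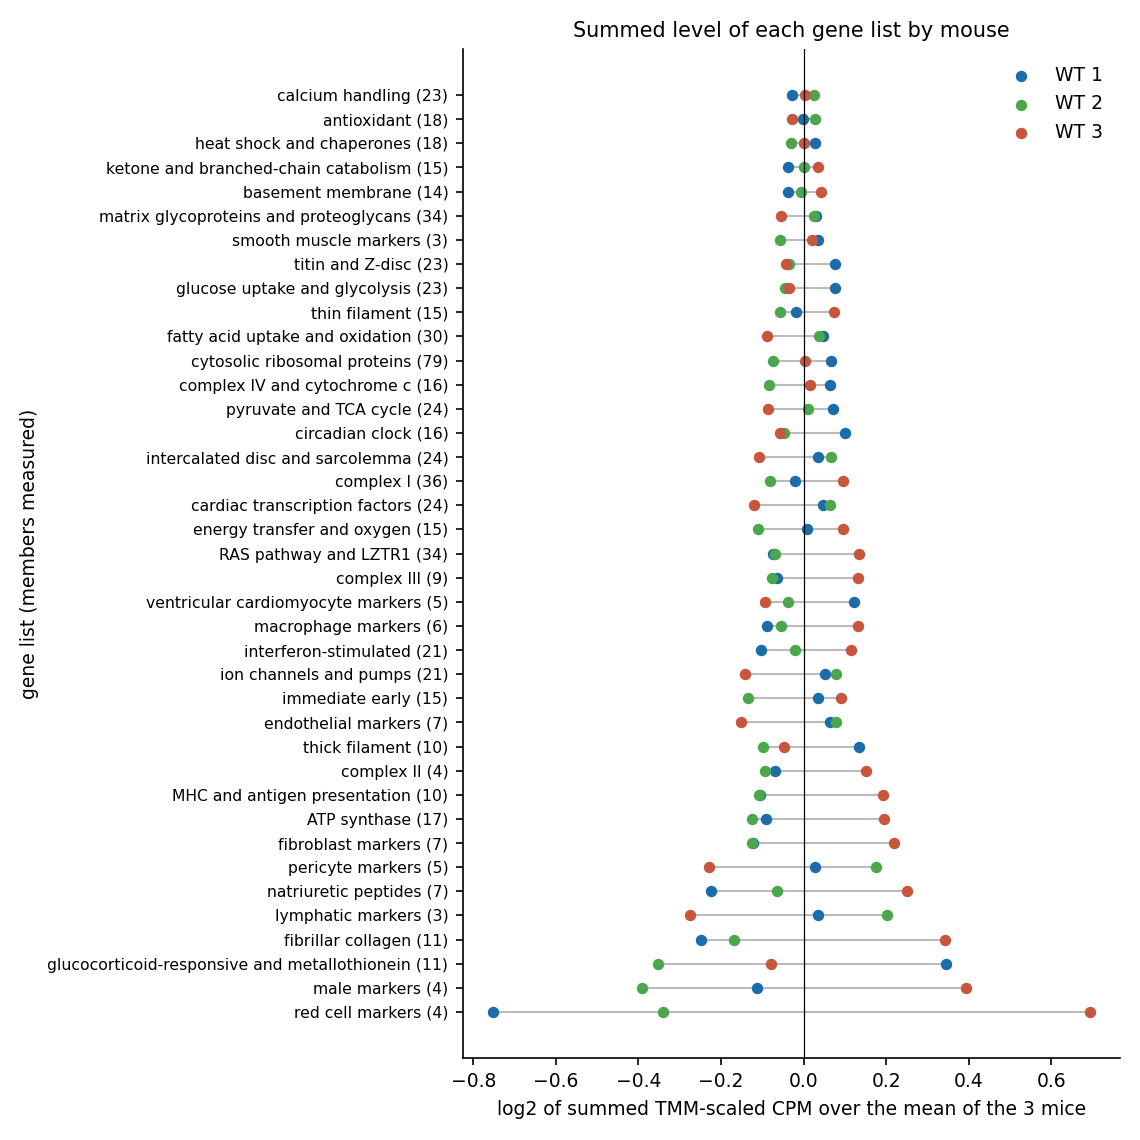
Summed TMM-scaled CPM of each gene or marker list with at least 3 measured members, 1 point per WT mouse. The mitochondrially encoded list is not drawn. Values are the log2 of the ratio to the mean of the 3 mice. Lists are ordered by their spread, with the number of measured members in brackets. The points of calcium handling nearly coincide (27476 to 28535 CPM), while those of the red cell markers spread from 474 to 1291 CPM.

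*Lztr1*, the gene that the heterozygous mice carry mutated, was a gene of middling level. It stood at 25.4, 25.3 and 23.4 CPM in WT mice 1, 2 and 3 (GRCm39 chr16:17326299-17344202), or 30.2 ± 1.96 TPM, rank 4829 among nuclear genes. *Cul3*, the scaffold of the ligase that LZTR1 joins, was higher at 170, 160 and 161 CPM and 144 ± 4.86 TPM. Among the RAS-family GTPases described here, *Rras2* led with 109 ± 15.1 TPM, ahead of *Hras* with 43.6 ± 7.27, *Nras* with 30.2 ± 0.728, *Rit1* with 26.6 ± 1.82, *Rras* with 24.5 ± 1.28 and *Mras* with 3.84 ± 0.707 TPM. The means of *Rit1* and *Rras* lay within the sum of their SDs of each other. All 34 genes of the RAS pathway list were measured, and none exceeded 2-fold between mice, which at a background of 5.84% says little of so short a list. The list took 0.354% ± 0.0276 of nuclear counts.

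The natriuretic peptides, hormones that the heart releases under load, were among the less steady cardiomyocyte genes. *Nppb* stood at 94.1, 137 and 265 CPM and *Nppa* at 39.6, 52.2 and 79.96 CPM, both lowest in WT mouse 1 and highest in WT mouse 3. Within a mouse, *Nppa* was at 0.345, 0.311 and 0.247 of *Nppb* per length. Of the cardiac transcription factors, *Nkx2-5* (60.0, 62.5 and 72.7 CPM) and *Mef2a* (240, 245 and 200 CPM) led per length with 187 ± 16.8 and 185 ± 23.6 TPM. *Gata4*, a zinc-finger factor of cardiomyocytes, was about even in WT mice 1 and 2 (89.3 and 102 CPM) and lower in WT mouse 3 (51.6 CPM).

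Between the 3 mice the median gene had a coefficient of variation (CV) of 13.7%, of which counting alone would give 2.95%. Left with WT mice 1 and 2, the median CV was 7.49%, against 13.3% without WT mouse 1 and 12.9% without WT mouse 2. The common biological coefficient of variation, edgeR's estimate of the spread beyond counting, was 19.2%, 12.7% without WT mouse 3 and 21.1% over the same genes in the 3 heterozygous mice. The median spread fell with level, from a median CV of 21.0% for nuclear genes up to 2 CPM to 10.2% from 100 to 1000 CPM. None of the 45 nuclear genes above 1000 CPM exceeded 2-fold, whereas 71 of the 661 genes up to 2 CPM did (10.7%) and 269 of the 1995 from 2 to 5 CPM (13.5%), beside 5.84% of all measured genes. For genes up to 2 CPM, the rule of passing 1 CPM in each mouse limits the fold that can be seen.

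**Figure D5:**
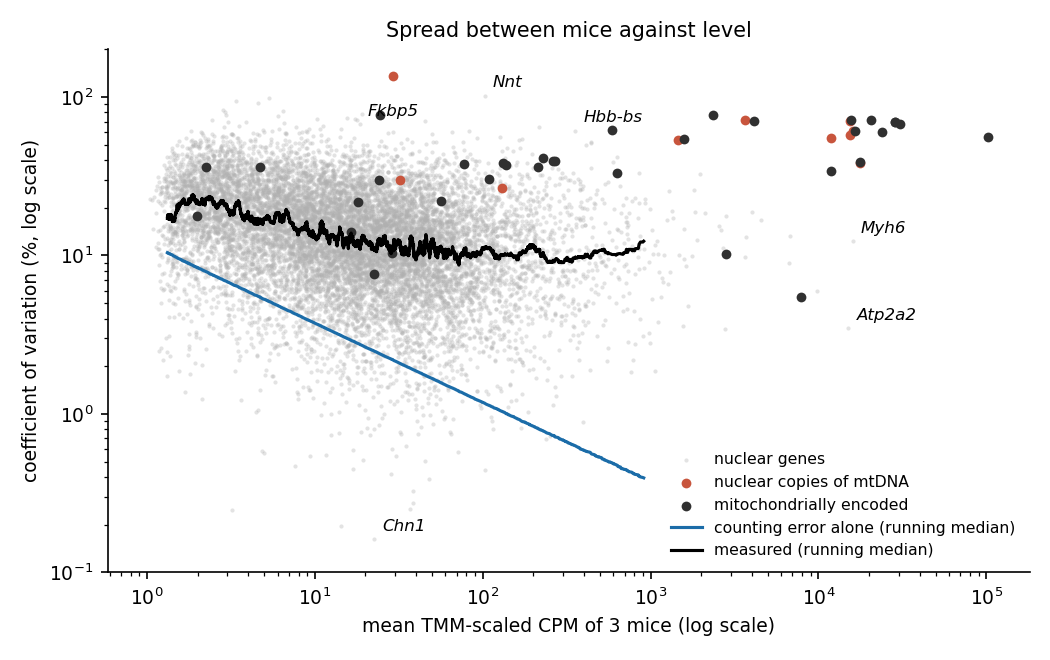
CV over the 3 WT mice (percent, log axis) of each measured gene against its mean TMM-scaled CPM (log axis). Running medians over all measured genes are drawn for the CV (black) and for counting error alone (blue). Among nuclear genes the median CV falls from 21.0% up to 2 CPM to 10.2% from 100 to 1000 CPM, above the counting error throughout.

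More genes passed 2-fold in the pairs that hold WT mouse 3. Between WT mice 1 and 2, 115 genes (0.923%) differed by over 2-fold, between 1 and 3 425 (3.41%) and between 2 and 3 483 (3.88%). WT mouse 3 was over 2-fold from both others in 224 genes (1.8%), 61 of them above (0.49%) and 163 below (1.31%), where this held for WT mouse 1 in 28 genes (0.225%) and for WT mouse 2 in 43 (0.345%). Among the heterozygous mice 985 of the same genes (7.91%) passed 2-fold, and the 192 genes common to both lists were 26.4% of the WT list and 19.5% of the heterozygous one. Members that overlap another measured gene on the genome, whose reads the counting could split, were 34.9% of the 728 genes and 32.3% of all measured genes.

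Some of the most variable nuclear genes were divided between 2 gene models. *Nnt*, the mitochondrial NADH-NADPH transhydrogenase, had 221, 62.2 and 24.03 CPM under 1 identifier, but both of its identifiers together gave 484, 537 and 432 CPM. *Ptp4a1*, a phosphatase, likewise summed to 101, 100.1 and 95.8 CPM over 2 identifiers, 1 of which had differed by 3.65-fold. *Fkbp5*, a glucocorticoid-induced chaperone with a single model, had 15.3, 7.91 and 32.1 CPM. *Hspb1*, a small heat-shock protein, had 84.3, 158 and 270 CPM and its processed pseudogene *Hsp25-ps1* 7.21, 14.3 and 36.1 CPM, in the same order, and the split between them is uncertain. *Hnrnpa3*, an RNA-binding protein, was set apart in WT mouse 2 with 8.77 CPM against 62.1 and 65.7 CPM.

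At the other end, *Chn1* differed least, at 22.6, 22.7 and 22.6 CPM (CV 0.162%), followed by *C1qc*, a complement subunit of macrophages, at 14.3, 14.3 and 14.4 CPM (CV 0.198%). Both CVs are below the counting error of those levels, so no steadiness is read from them.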

How the data were processed

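Per the labels and the study's methods, left ventricular RNA was purified with TRIzol and RNeasy, made into libraries with NEBNext Ultra II, sequenced on a NovaSeq6000, trimmed with Trim Galore, aligned to GRCm39 with HISAT2 and counted with StringTie, ribosomal RNA data being left out after alignment, although the deposited counts still hold the 2 mitochondrial ribosomal RNAs; the versions and the strand setting are not given in the sources used here. The authors deposited whole-number counts per gene, not normalized, for 6 mice, and the 3 WT columns were used here; the 3 heterozygous (Mut) columns served only as a second set of mice for the spread and for the range of the mitochondrial share. No column of per-sample values was left unmapped (0 columns). A second deposited table held the authors' edgeR comparison of the genotypes in 4 columns, log2 fold change, log2 CPM, p-value and false discovery rate, none of which was used; its gene names were, for 12385 measured genes, with 73 more from GENCODE M39 and 1 left unnamed.

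Members and gene lists were chosen with earlier results of these data known. Members had CPM above 1 in each WT mouse. Counts were scaled between mice by TMM (edgeR 4.0.16, R 4.3.3) and described with Python 3.11.15. Levels of different genes used TPM from the Ensembl canonical transcript (12441 members had a length, 18 had not); this length was chosen after the union of exons was seen to be inflated by long unused exons. Nuclear levels were scaled over nuclear members only. Nuclear copies of mitochondrial genes were found with BLAST 2.17.0 (over 80% of the copy aligned), overlapping genes with bedtools 2.31.1. Promoters came from RefSeq on GRCm38.p6 and were joined by symbol, with no coordinate converted between builds.

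There were 31 gene lists and 21 marker lists. Genes to name were taken from the markers, the 20 nuclear and 5 mitochondrial genes highest by mean TPM, and the highest genes of each list. Set isoform pairs and the members with the highest and lowest CV were further sources. Not all of these genes are described, for example *mt-Nd1* and *Gm20186*. Other genes were named after their values were seen, in particular *mt-Atp8*, *mt-Nd2* and their nuclear copies, *Atp5g2*, *Cox7a2*, *Atp5h*, *Col1a1*, *Col1a2*, *Pdk4* and *Gata4*. No test was run, since there is 1 condition; the SD over the 3 mice is the error given. Alternatives were other scalings (library size, DESeq2 1.42.0 size factors, upper quartile), other thresholds on low counts, other transcript lengths, mitochondrial sequence left out, and each mouse left out in turn. Single-cell composition and the genotype comparison were not analysed here, and a few list members are not reported here.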

Additional observations from a re-analysis of the deposited data

How the results depend on the processing

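Of 129 alternative values for 26 summary results, 108 stayed within the spread between mice (within 1.5 times for counts). Of the 162 alternative values for the mean CPM of 27 single genes, the 81 under other scalings did so too. The other 81 left out 1 mouse and could not fail. A mean of 2 of the 3 values always lies within their SD of the full mean. The same holds, with 1 mouse left out, for the shares, the marker sums and the genes that hold 50% of counts. The 108 therefore include values whose outcome was fixed in advance. Between 12521 and 15695 genes were measured under the other thresholds and with a mouse left out, against 12459. With mitochondrial genes left out, and then with their nuclear copies left out too, 391 and 589 genes held 50% of counts (120 over all counts), the sarcomere share was 8.94% and 10.1% (6.38%), the energy share 13.001% and 14.7% (9.29%) and the matrix share 0.816% and 0.919% (0.584%). Those nuclear shares without WT mouse 3 were 10.1%, 14.6% and 0.905%, so the move comes from the mitochondrial sequence in the denominator. Per length, the sarcomere share was 3.87% of all members. The dynamic range, 883665-fold, was 5311500-fold among genes with at least 10 counts in every mouse and 55622-fold among nuclear genes. Of the 20 highest nuclear genes, 14 to 20 stayed in the top 20 under the other lengths and scalings and with a mouse left out. Scaling by library size only gave a median CV of 27.0% (13.7%) and 2877 genes over 2-fold (728); members above 10 CPM gave 246. Leaving out 1 mouse at a time, the median CV ran from 7.49% to 13.3%, the genes over 2-fold from 115 to 486, and the common biological coefficient of variation from 12.7% to 22.04% (19.2%), the lowest of each being without WT mouse 3. Likewise, 50% of all counts lay in 167, 169 and 24 genes without WT mice 1, 2 and 3, against 120. These values are means over 2 of the 3 mice, so they counted as within the spread (SD over the 3 mice, 166) whatever the values were. No paired analysis was possible because a single condition is described and its results come from no test.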

Other observations

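Genes of stress, defence and rhythm added further detail. Among heat-shock and chaperone genes, *Hspa8* (2212 ± 161 TPM over nuclear genes, SD, n = 3) and *Hsp90ab1* (1855 ± 102 TPM), the constitutive cytosolic chaperones, led, while the inducible *Hspa1a* was near the threshold at 2.48, 2.75 and 2.93 CPM in WT mice 1, 2 and 3. The list summed to 6531, 6274 and 6408 CPM, yet 4 of its 18 measured genes differed by over 2-fold between mice, where 5.84% of all measured genes did. In the immediate early list, *Jund* reached 269 ± 65.8 TPM, and *Fos* was not among the measured genes with 1.07, 1.28 and 1.42 TMM-scaled CPM. Glucocorticoid-responsive and metallothionein genes summed to 1511, 931 and 1126 CPM, lowest in WT mouse 2. *Zbtb16*, a glucocorticoid-induced zinc-finger factor, followed that order only in part, with 37.5, 15.3 and 53.4 CPM.

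Of the clock genes, the repressor *Nr1d1* stood at 82.0, 59.9 and 31.5 CPM and its output partner *Dbp* at 10.7, 4.11 and 6.27 CPM, so the mice differed, while the list's sum differed by 1.11-fold. Antigen-presenting genes were led by *B2m* (737 ± 113 TPM) and *Cd74* (114, 84.8 and 165 CPM), the class II invariant chain, which was highest in WT mouse 3 as was *H2-Eb1* (27.0, 21.5 and 51.4 CPM). Antioxidant genes had an even sum, 2393, 2442 and 2346 CPM, with *Gpx4* highest (1179 ± 265 TPM), though *Nqo1*, the 1 of 18 over 2-fold, stood at 36.8, 33.1 and 14.9 CPM. In ribosomes, the muscle paralog *Rpl3l* stood at 1.53-, 1.23- and 1.07-fold of *Rpl3* per length, and 8 of the 79 ribosomal protein genes (10.1%) exceeded 2-fold, beside 5.84% of all measured genes; many of these have processed pseudogenes, which makes their levels uncertain. Among sparse cell types, lymphatic markers summed to 115, 129 and 92.8 CPM, endocardial markers to 36.5, 32.6 and 44.1 CPM, conduction markers to 11.5, 14.1 and 9.26 CPM, Schwann and neuron markers to 8.10, 6.58 and 7.19 CPM and mesothelial markers to 6.01, 4.68 and 5.47 CPM, all far below the markers of the working myocardium.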
